A study of Mus musculus with 40 samples.

Results

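The inflammasome and the inflammatory cytokines around it were described here by 10 of the 54307 genes in the deposited table, in all 40 libraries. The 10 genes were picked by name and found through their Ensembl identifiers. They comprised 4 pro-inflammatory cytokines (Il1a, Il1b, Il18 and Tnf), 2 genes that restrain inflammation (the receptor antagonist Il1rn and the cytokine Il10) and 4 components of the inflammasome pathway (the sensor Nlrp3, the adaptor Pycard, the protease Casp1 and the pore-forming Gsdmd).

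RNA had been sequenced from the choroid and the retina of 20 mice, 3 days after 6 laser burns per eye, an injury that induces choroidal neovascularization. All mice were C57BL/6J animals with both Tgfbr2 alleles floxed, of either sex, and all were given tamoxifen eye drops from 6 to 7 weeks of age. The Tgfbr2ΔEC mice also carried Cdh5-CreERT2, a tamoxifen-inducible Cre driven by the promoter of an endothelial cadherin, and their littermates without Cre were the controls. From the first tamoxifen onward a mouse ate either control food (– PLX) or food with PLX5622 (+ PLX), an inhibitor of the CSF1 receptor that depletes microglia and other mononuclear phagocytes. The 4 groups held 5 mice each: control – PLX (mice 1 to 5), Tgfbr2ΔEC – PLX (mice 6 to 10), control + PLX (mice 11 to 15) and Tgfbr2ΔEC + PLX (mice 16 to 20). Every mouse had been lasered, so that no comparison with uninjured tissue was possible, and of the choroid only the central piece with the lesions was sequenced.

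The inflammasome is a protein platform of the cytosol. A sensor such as NLRP3 responds to damage or infection, recruits the adaptor ASC (encoded by Pycard), and thereby activates caspase-1, which cleaves the precursors of IL-1β and IL-18 and opens gasdermin D so that the cytokines leave the cell. Most of this control acts on proteins after translation, which RNA does not show, whereas Il1b and Nlrp3 are also known to be induced at the level of transcription. In the eye, microglia, infiltrating macrophages and neutrophils are the usual sources of IL-1β and TNF, while the retinal pigment epithelium has been studied as a site of inflammasome activity in macular degeneration.

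On the mouse genome GRCm39, Il1a (chr2:129140291-129152098) and Il1b (chr2:129206490-129213059) lie on the minus strand of chromosome 2 with 54391 bases between them, and Il1rn (chr2:24226865-24241506) lies on the plus strand of the same chromosome. Casp1 (chr9:5298508-5307290) and Il18 (chr9:50466081-50493633) are both on the plus strand of chromosome 9. The remaining members are Tnf (chr17:35418357-35420983, minus strand), Il10 (chr1:130947581-130952711, plus), Nlrp3 (chr11:59432394-59457782, plus), Pycard (chr7:127588558-127593039, minus) and Gsdmd (chr15:75733974-75739257, plus). All 10 are annotated as protein coding.

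The 3 promoters printed here belong to the sensor and the cytokine that stood among the largest PLX-related differences in choroid (Nlrp3 and Tnf) and to the cytokine that did not pass the test in either tissue (Il18). Each window runs 5′ to 3′ on the gene's own strand from 250 bases before the start of the canonical GENCODE transcript to 50 bases from it, on GRCm39, and capitals mark matches to 4 short motifs searched on both strands. The motifs were GAGGAAG, a core recognised by the myeloid factor PU.1, TGANTCA for AP-1, the NF-kB consensus with its central bases left free and TATAAA for the TATA box. In the Nlrp3 window (chr11:59433262-59433561, plus strand) the capitals are 2 PU.1 cores, which begin 130 and 36 bases before the start. In the Tnf window (chr17:35420934-35421233, minus strand) they are a PU.1 core 118 bases and a TATA box 29 bases before the start, and in the Il18 window (chr9:50476424-50476723, plus strand) an NF-kB match 152 bases and a PU.1 core 35 bases before it.
Nlrp3: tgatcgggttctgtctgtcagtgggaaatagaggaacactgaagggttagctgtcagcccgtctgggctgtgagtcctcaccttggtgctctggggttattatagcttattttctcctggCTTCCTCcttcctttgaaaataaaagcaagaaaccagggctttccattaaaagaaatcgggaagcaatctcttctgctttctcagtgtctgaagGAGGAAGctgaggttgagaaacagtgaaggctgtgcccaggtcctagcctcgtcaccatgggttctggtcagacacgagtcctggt
Tnf: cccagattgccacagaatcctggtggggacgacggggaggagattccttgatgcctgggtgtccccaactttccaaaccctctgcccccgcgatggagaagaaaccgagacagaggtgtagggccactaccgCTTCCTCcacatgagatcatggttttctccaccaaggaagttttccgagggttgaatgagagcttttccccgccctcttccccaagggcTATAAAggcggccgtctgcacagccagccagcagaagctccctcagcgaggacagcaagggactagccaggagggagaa
Il18: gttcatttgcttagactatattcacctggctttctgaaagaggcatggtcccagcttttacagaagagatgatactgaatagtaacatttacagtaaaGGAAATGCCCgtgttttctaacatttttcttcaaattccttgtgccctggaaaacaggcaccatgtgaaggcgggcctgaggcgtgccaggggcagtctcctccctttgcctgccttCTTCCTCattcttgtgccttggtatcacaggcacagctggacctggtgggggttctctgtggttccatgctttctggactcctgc
The PU.1 core was found in 13.2% of the 21757 promoters of the same length, the TATA box in 13.2%, the AP-1 letters in 7.15% and the NF-kB letters in 1.76%. Among the other members, the Il1a and Pycard windows also held a PU.1 core, the Il1b and Il10 windows a TATA box and the Il1rn window an AP-1 match, while the Casp1 and Gsdmd windows held none of the 4 motifs. A match describes these letters only and is not evidence of binding, and the motif was present both in windows of genes that fell with PLX and in the window of Il18, which did not pass the test.

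The values are normalized counts, that is, salmon estimates that the authors scaled for library size. Summed over genes they came to between 24718469 and 25956180 per choroid library and between 22256892 and 24507335 per retina library. A single read was worth between 0.893 and 1.195 of these units among the choroid libraries and between 0.742 and 1.124 among the retina libraries. This was judged by the most frequent low value in each library. Tgfbr2 itself did not separate the genotypes in these whole tissues, with means of 10503 ± 425 (SD, n = 5) in control – PLX choroid and 10176 ± 1077 in Tgfbr2ΔEC – PLX choroid. The reason was not tested, and these gene totals do not show whether the deletion took place. The paper reports a successful deletion, judged by PCR and qPCR of choroidal tissue. A score for mononuclear phagocytes, the mean of log2(normalized count + 1) over 17 marker genes, lay between 11.49 and 11.77 in the 10 – PLX choroids and between 8.92 and 9.97 in the 10 + PLX choroids. In retina it lay between 6.12 and 8.11 without PLX and between 1.36 and 3.36 with it, and all 17 markers were lower with PLX in each tissue. The choroid libraries also carried photoreceptor RNA in unequal amounts, since a neural retina score over 10 genes ranged from 7.13 to 12.67 among them, and the retina libraries carried RNA of the pigment epithelium, with a score between 6.78 and 9.13.

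Choroid was the tissue in which the members could be measured. All of them except Il10 stood above the value of 3 reads in each of the 20 choroid libraries, and Il10 was at or under 3 reads in 2 of 10 – PLX and 8 of 10 + PLX choroids. In retina only Il18 and Gsdmd stood above 3 reads throughout. Il1a was at or under 3 reads in 2 – PLX and 10 + PLX retinas, Il1b in 3 and 9, Il1rn in 1 and 9, and Tnf in 8 and 10. Nlrp3 was at or under that value in 0 – PLX and 7 + PLX retinas, Casp1 in 0 and 6, and Pycard in 0 and 1. Il10 was at or under 3 reads in all 20 retinas and was above 0 in 1 of them.

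Per kilobase of annotated canonical transcript, the – PLX choroid held Il1rn at the highest level (median of 426 normalized counts per kilobase, range 235 to 694, n = 10), followed by Gsdmd (316, 220.2 to 432), Il18 (193, 149 to 240.1) and Casp1 (114, 86.1 to 163). Lower levels per kilobase were found for Il1b (54.6, 21.4 to 161), Nlrp3 (29.6, 14.9 to 37.8), Tnf (23.3, 10.4 to 37.6) and Il1a (19.4, 10.5 to 21.5), and Il10 came last (4.0, 0.86 to 10.7). The ranges of each pair of neighbours in this order overlapped. Per kilobase, the antagonist in its lowest library exceeded Il1a and Il1b in their highest. Pycard was left out of the order, because its annotated length of 4122 bases over 3 exons may not be that of the transcripts counted.

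**Figure D1:**
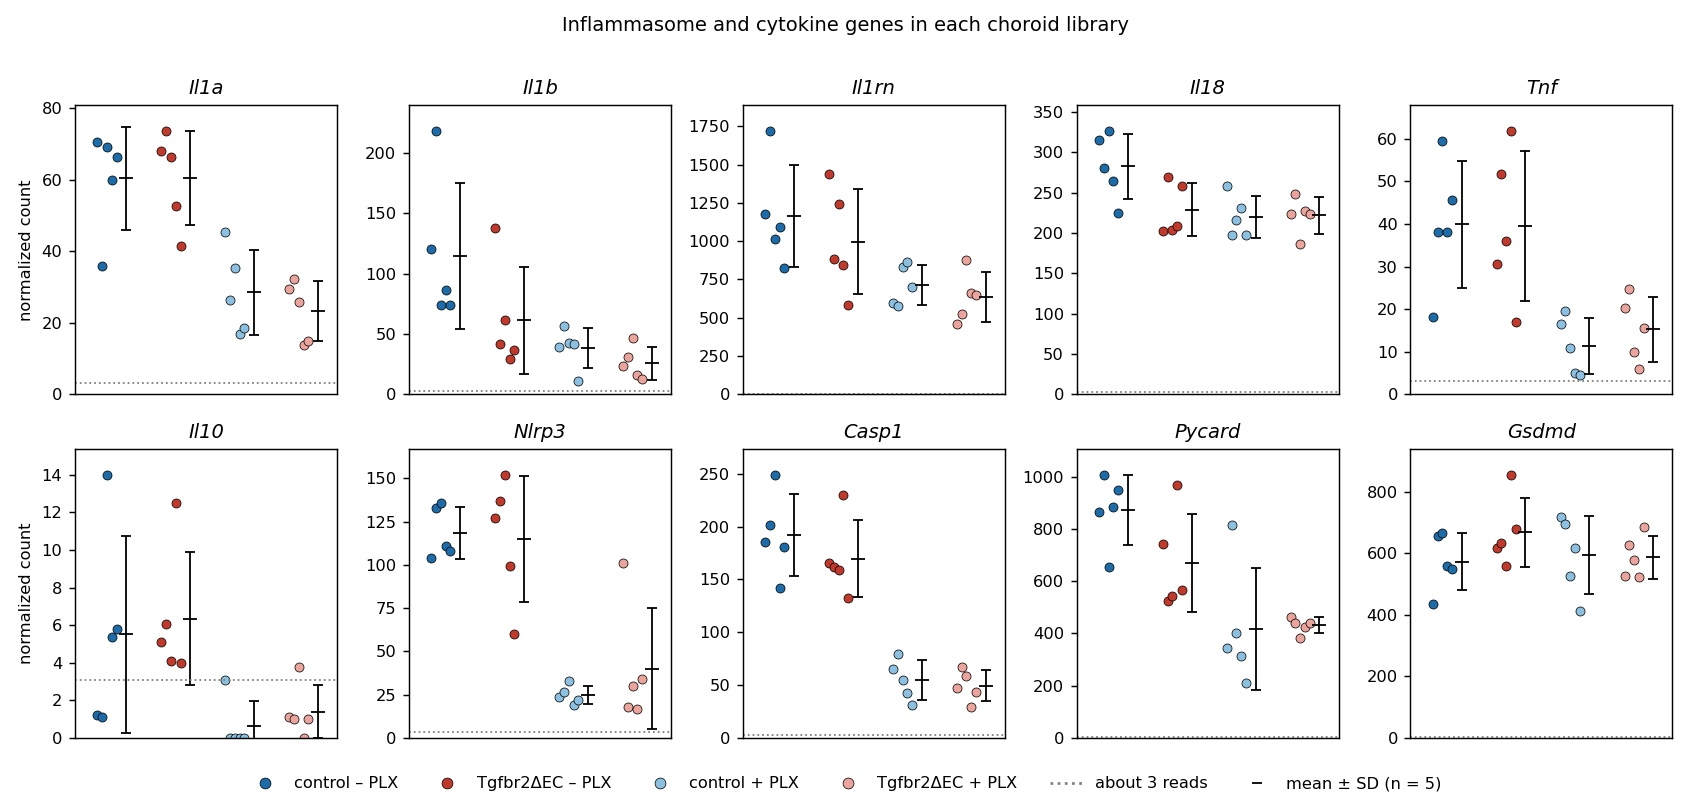
Normalized count (vertical axis, linear from 0, a scale of its own in each panel) of the 10 genes in each of the 20 choroid libraries, with mean ± SD (n = 5) beside each group, bars cut at 0, and a dotted line at about 3 reads. The + PLX points of Casp1 all lie below the – PLX points, whereas the groups of Il18 and Gsdmd overlap.

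With PLX, Casp1, Nlrp3, Il1a, Pycard, Tnf, Il1b and Il1rn were lower in choroid, as was Il10 near the limit of counting, and no member was called higher. Over both genotypes limma, with Benjamini-Hochberg adjustment over the 23619 genes tested, called these 8 of the 10 members lower, while the same rule called 5.06% of all genes tested lower. Il10 had a + PLX mean of 0.998, under the minimum mean of 1 that a gene needed to be tested, and so entered through its – PLX libraries, which leaves 7 calls that do not depend on how a gene was admitted. The median difference over the 10 members was -1.31 on the log2(normalized count + 1) scale, and that over all genes was 0.00054. Fewer cells of a type and less RNA per cell cannot be told apart in such bulk samples. The 17 phagocyte markers fell in the same libraries, the score by 2.19 (two-sided exact permutation test over 63504 relabellings within genotype, p = 3.15e-05, the smallest they can give), and the part of cell loss in the members' differences was not tested.

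Among the agonists, Il1b, the cytokine that caspase-1 matures, varied widely. Without PLX its normalized counts were 120.3, 218, 74.2, 86.5 and 73.9 in control choroids and 138, 41.5, 62.0, 29.1 and 36.9 in Tgfbr2ΔEC choroids. With PLX they were 39.4, 56.3, 42.4, 41.9 and 10.7 in controls and 23.2, 30.9, 46.6, 15.6 and 12.8 in Tgfbr2ΔEC mice. The control groups did not overlap, and the Tgfbr2ΔEC groups did, because 3 mice without PLX stood as low as their treated counterparts. The mean fell 2.75-fold over both genotypes, from 88.1 ± 57.6 to 32 ± 15.7 (SD, n = 10), a difference of -1.37 ± 0.33 (SE, adjusted p = 0.0122, limma).

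Il1a, the sister cytokine that needs no caspase-1 to be active, was steadier. Its – PLX normalized counts were 70.6, 35.8, 69.3, 60.0 and 66.4 in controls and 68.1, 73.5, 66.5, 52.7 and 41.5 in Tgfbr2ΔEC choroids. The + PLX values were 45.5, 26.3, 35.3, 16.8 and 18.6 in controls and 29.5, 32.3, 25.7, 13.7 and 15.0 in Tgfbr2ΔEC choroids. All Tgfbr2ΔEC mice with PLX lay below all those without, and in controls the low mouse 2 overlapped with the treated group. The mean of 60.4 ± 12.9 fell 2.34-fold to 25.9 ± 10.2 (difference -1.25 ± 0.22, limma adjusted p = 0.000662).

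Tnf, the founding cytokine of the TNF family, was counted at 18.2, 38.2, 59.4, 38.2 and 45.6 in control and 30.5, 51.8, 36.1, 61.7 and 17 in Tgfbr2ΔEC choroids without PLX. With PLX it stood at 16.6, 19.5, 10.8, 5.11 and 4.64 in controls and 20.3, 24.7, 9.9, 5.97 and 15.5 in Tgfbr2ΔEC choroids. The highest treated mice thus reached the lowest untreated ones. The fall was 2.98-fold, from 39.7 ± 15.4 to 13.3 ± 7.05 (difference -1.58 ± 0.33, limma adjusted p = 0.00293).

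Il18, the other substrate of caspase-1, showed little difference. It was counted at 316, 281, 326, 265 and 225 in control and 203, 270, 204, 209 and 259 in Tgfbr2ΔEC choroids without PLX. With PLX the values were 258, 197, 216, 231 and 197 in controls and 224, 249, 186, 227 and 224 in Tgfbr2ΔEC choroids, so that all 4 groups overlapped. The means were 256 ± 44.8 and 221 ± 22.9, and the difference of -0.20 (95% interval -0.39 to -0.0027) did not pass the adjustment (limma adjusted p = 0.253).

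Il1rn, which encodes the antagonist of the IL-1 receptor, was counted at 1179, 1716, 1011, 1095 and 826 in control and 1441, 881, 1239.9, 844 and 581 in Tgfbr2ΔEC choroids without PLX. With PLX it stood at 597, 578, 828, 864 and 699 in controls and 456, 526, 878, 661 and 649.8 in Tgfbr2ΔEC choroids. The groups overlapped in part, and the mean fell 1.61-fold, from 1081 ± 331 to 674 ± 144 (difference -0.65 ± 0.16, limma adjusted p = 0.0136). This was the smallest of the 8 differences called.

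Il10, an anti-inflammatory cytokine, was near the limit of counting. Its values without PLX were 1.2, 1.13, 14.0, 5.39 and 5.8 in controls and 5.11, 6.05, 4.07, 12.5 and 3.99 in Tgfbr2ΔEC choroids. With PLX only mouse 11 of the controls was above 0, at 3.06, and the Tgfbr2ΔEC choroids gave 1.13, 0.988, 3.78, 0 and 1.02. The fitted difference was -1.80 ± 0.41 (limma adjusted p = 0.00647), but no fold is given, since the + PLX mean lay under 3 reads.

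Within the inflammasome proper, the sensor and the protease showed the clearest separation. Casp1 was counted at 185, 202, 249, 142 and 181 in control and 166, 162, 159, 229.9 and 132 in Tgfbr2ΔEC choroids without PLX. With PLX its values were 65.1, 79.7, 54.8, 42.1 and 31.4 in controls and 47.6, 67.5, 58.7, 28.8 and 43.8 in Tgfbr2ΔEC choroids. No treated library reached an untreated one in either genotype, and the mean fell 3.48-fold, from 181 ± 37.2 to 51.9 ± 16.3 (difference -1.82 ± 0.18, limma adjusted p = 2.91e-07).

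Nlrp3 stood at 104, 133, 136, 111 and 108 in control and 127, 137, 152, 99.2 and 60.0 in Tgfbr2ΔEC choroids without PLX. With PLX it was counted at 23.4, 26.7, 33, 19.2 and 22 in controls and 101, 17.9, 30, 16.9 and 34.1 in Tgfbr2ΔEC choroids. Mouse 16 alone among the treated mice lay within the untreated range. The mean fell 3.6-fold, from 117 ± 26.3 to 32.4 ± 24.9 (difference -1.99 ± 0.26, limma adjusted p = 1.37e-05).

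Pycard, the adaptor, was counted at 866, 1008, 656, 885 and 951 in control and 743, 526, 544, 969 and 565 in Tgfbr2ΔEC choroids without PLX. With PLX it stood at 345, 817, 400.1, 314 and 209 in controls and 464, 442, 384, 426 and 442 in Tgfbr2ΔEC choroids. Only mouse 12 of the treated mice lay among the untreated ones, and the mean fell 1.82-fold, from 771 ± 188 to 424 ± 158 (difference -0.90 ± 0.17, limma adjusted p = 0.00176). Gsdmd, the pore protein downstream of caspase-1, lay between 435 and 854 without PLX and between 412 and 717 with it, and its means of 619.8 ± 109.6 and 590.4 ± 96.1 differed by -0.07 (95% interval -0.29 to 0.16, limma adjusted p = 0.8). The interval of Gsdmd lay above the whole interval of Casp1 (-2.19 to -1.44), although no test compared the genes.

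**Figure D2:**
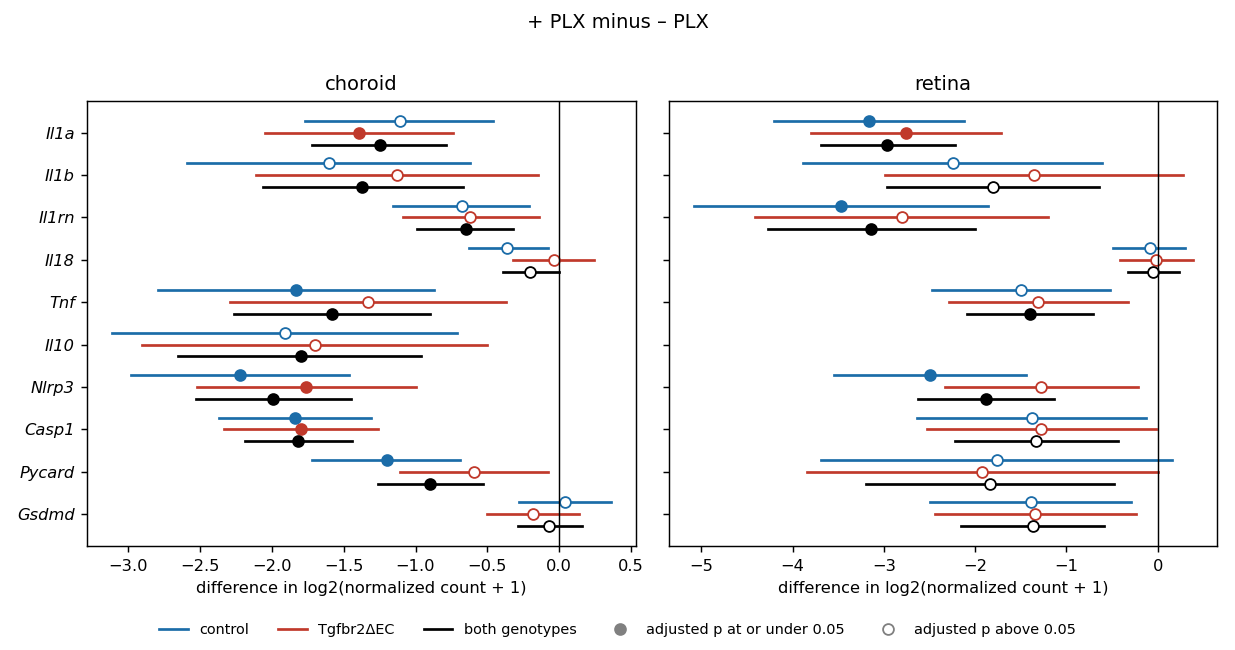
Difference between + PLX and – PLX in log2(normalized count + 1) (horizontal axis) for each gene, with 95% intervals from limma, in controls, in Tgfbr2ΔEC mice and over both genotypes. Filled points have an adjusted p at or under 0.05. In choroid the points of Casp1 and Nlrp3 are filled in all 3 comparisons and those of Il18 and Gsdmd in none, and Il10 has no retina value because it was not tested there.

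Within a single genotype, fewer members passed. In control choroids 4 of 10 were called lower (Casp1, Nlrp3, Pycard and Tnf), against 3.15% of all genes, and in Tgfbr2ΔEC choroids 3 of 10 (Casp1, Nlrp3 and Il1a), against 3.5%. The differences of Casp1 were -1.84 and -1.80 in the 2 genotypes and those of Nlrp3 -2.22 and -1.76. Pycard differed by -1.20 in controls and -0.59 in Tgfbr2ΔEC mice, and Il18 by -0.36 and -0.04, but the genotype by diet interaction itself called 0 members in choroid (limma, 0% of all genes, 0 members with an unadjusted p under 0.05). For Pycard the interaction was 0.61 (95% interval -0.12 to 1.34) and for Il18 0.32 (-0.07 to 0.71).

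Retina gave the same comparison at a far lower level. Of the 10 members 9 could be tested there, and 4 were called lower with PLX over both genotypes (Il1a, Il1rn, Nlrp3 and Tnf), while 1.08% of the 23243 genes tested were called lower. Il1a, Il1rn and Tnf had + PLX means under the minimum of 1 and were tested only by virtue of their – PLX libraries, so that they had to differ, and the count of 4 carries no weight of its own. The phagocyte score fell by 5.20 in the same retinas (exact permutation p = 3.15e-05), with Cx3cr1, a receptor of microglia and monocytes, going from a mean of 235 to 0.657 normalized counts.

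**Figure D3:**
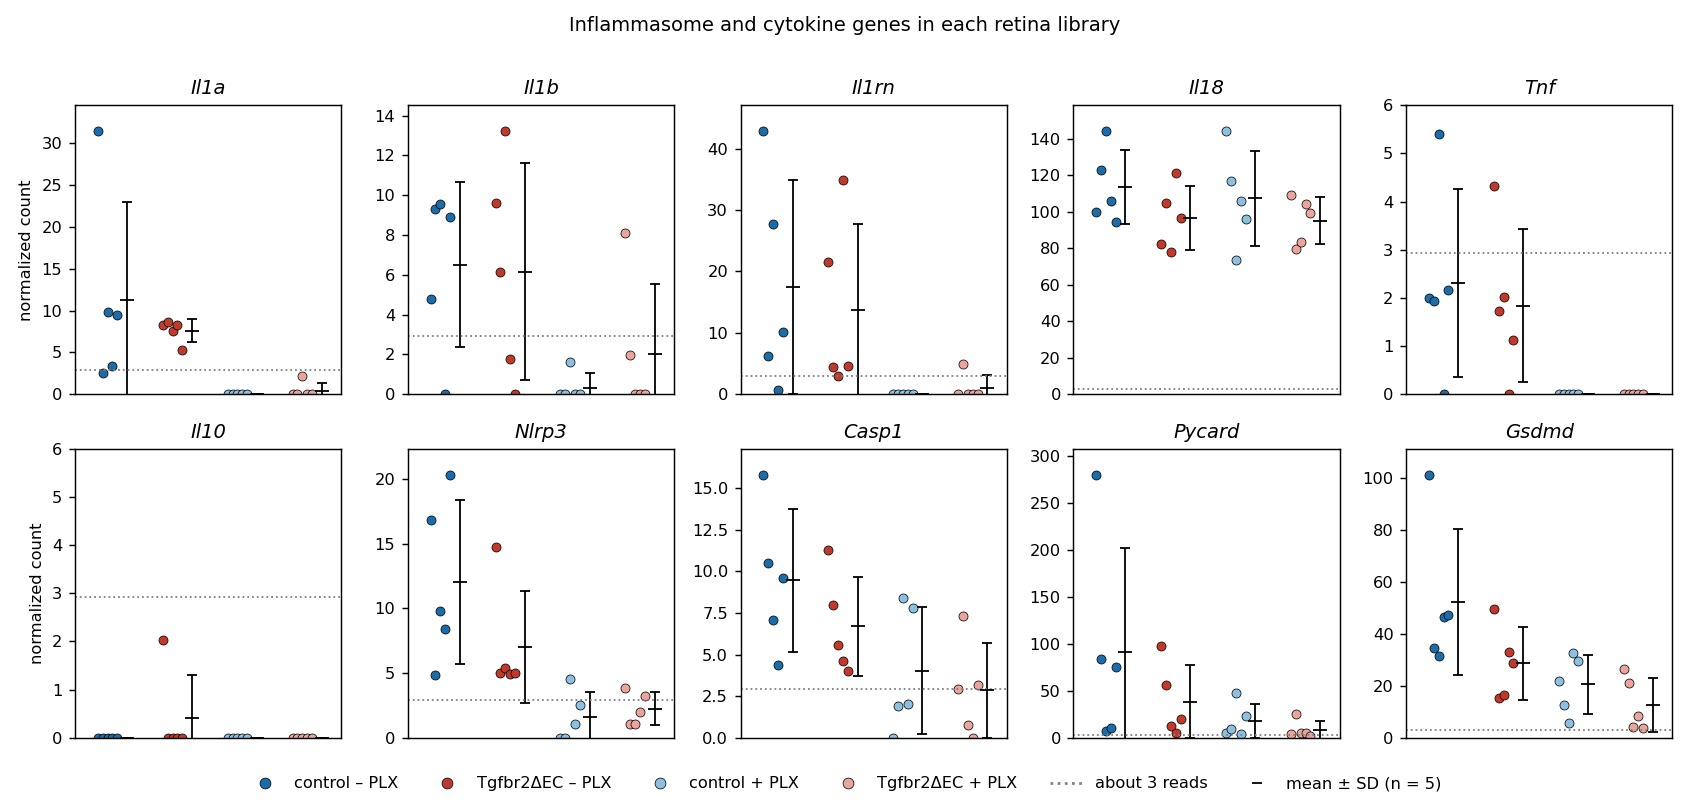
Normalized count (vertical axis, linear from 0, a scale of its own in each panel) of the 10 genes in each of the 20 retina libraries, with mean ± SD (n = 5) beside each group, bars cut at 0, and a dotted line at about 3 reads. Il18 and Gsdmd are the panels in which all points lie above the dotted line, and mouse 1 of the control – PLX group is the highest point for Il1a, Il1rn, Casp1, Pycard and Gsdmd.

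Il1a in retina was counted at 31.4, 2.52, 9.8, 3.39 and 9.44 in control and 8.28, 8.65, 7.57, 8.27 and 5.32 in Tgfbr2ΔEC mice without PLX. With PLX it was 0 in all retinas except that of mouse 18, at 2.15. The groups did not overlap, and the difference was -2.96 ± 0.35 (limma adjusted p = 1.32e-05). In controls, where all treated retinas were at 0, the fall was at least 3.87-fold when 3 reads per library were taken as the floor, and at least 2.15-fold without mouse 1.

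Il1rn stood at 42.8, 6.18, 27.7, 0.658 and 10.1 in control and 21.6, 4.45, 2.98, 34.9 and 4.6 in Tgfbr2ΔEC retinas without PLX. Of the treated retinas only mouse 17 was above 0, at 4.96. The fitted difference was -3.14 ± 0.55 (limma adjusted p = 0.00175), and in controls the fall was at least 5.98-fold against the same floor, or 3.81-fold without mouse 1.

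Nlrp3 in retina was counted at 16.8, 4.87, 9.79, 8.38 and 20.3 in control and 14.7, 5.01, 5.42, 4.89 and 5.02 in Tgfbr2ΔEC mice without PLX. With PLX the values were 0, 0, 4.5, 1.06 and 2.51 in controls and 3.81, 1.06, 1.05, 1.99 and 3.26 in Tgfbr2ΔEC mice. The highest treated retina lay just under the lowest untreated one, and the difference was -1.88 ± 0.36 (limma adjusted p = 0.00476). Tnf was 0 in all 10 treated retinas and between 0 and 5.41 in the untreated ones. Its difference of -1.40 ± 0.33 (limma adjusted p = 0.0384) rested on 2 retinas above 3 reads, was no longer called in 11 of the 13 fits that left out 1 mouse and could still test it, and is not given as a fold. It was also not called with a pseudocount of 5 (-0.46), or after adding to the fit either the sex score (-1.37) or the score of neural retina genes (-1.37).

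The other inflammasome components were lower in treated retinas on average but did not pass the adjustment. Casp1 values covered 4.03 to 15.8 in untreated and 0 to 8.41 in treated retinas (difference -1.33, 95% interval -2.22 to -0.44, limma adjusted p = 0.273). Pycard ranged from 5.05 to 279.6 and from 2.0 to 47.7 (difference -1.84, interval -3.20 to -0.48, limma adjusted p = 0.401), and Gsdmd from 15.4 to 101 and from 3.8 to 32.6 (difference -1.37, interval -2.15 to -0.59, limma adjusted p = 0.115). Il1b, at 0 in 2 untreated and 7 treated retinas, differed by -1.80 (interval -2.96 to -0.64, limma adjusted p = 0.227). In each of these genes the untreated and treated groups overlapped. Gsdmd was called without mouse 16 (-1.54, limma adjusted p = 0.0438) and Il1b without mouse 4 (-2.12, limma adjusted p = 0.0447).

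Il18 in retina stood between 77.8 and 144 normalized counts in untreated and between 73.8 and 144 in treated retinas, with means of 105 ± 19.8 and 101 ± 20.5 (difference -0.05, interval -0.33 to 0.23, limma adjusted p = 1). Il10, with 1 retina above 0 at 2.02, was not detectable at this depth.

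Within control retinas 3 of 9 members were called lower (Il1a, Nlrp3 and Il1rn), against 0.727% of all genes, and within Tgfbr2ΔEC retinas 1 of 9 (Il1a), against 0.512%. The same limit holds for Il1a and Il1rn in these counts, which leaves Nlrp3 in controls. The retina of mouse 1 had the highest Il1a, Il1rn, Casp1, Pycard and Gsdmd of all 20, and among its marker scores that of neutrophils (2.86) was the highest of the 20 and those of neural retina (15.6) and Mueller glia (12.57) were the lowest. Its phagocyte (7.84), microglia (6.66), T and NK cell (1.20) and melanocyte (7.07) scores were each the second highest and its RPE score (7.09) the second lowest, and their part in its values was not tested. Without mouse 1, 5, 11 or 12 the fit called 1 member in control retinas. Over both genotypes the difference of Nlrp3 remained called in each fit that left out 1 mouse. Those of Il1a and Il1rn did so as well, but nothing is read from this, since both genes were tested only through their – PLX libraries. The interaction of genotype and diet called 0 of 9 members in retina (limma, 0% of all genes, 0 with an unadjusted p under 0.05).

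Markers of other leukocytes were examined because Il1b, Il1rn and Nlrp3 are also expressed by neutrophils and dendritic cells. A neutrophil score over 10 genes was 4.74 ± 0.35 (SD, n = 10) in untreated and 4.47 ± 0.35 in treated choroids (difference -0.27, exact permutation p = 0.0943), with Ly6g and Elane at mean values under 3. Of its 8 genes tested in choroid, 2 were called lower with PLX, Mmp8 and Csf3r, the receptor of G-CSF, which went from a mean of 508 ± 128 to 242 ± 58.9 with no overlap (-1.06, limma adjusted p = 1.57e-05), while S100a8 (0.24) and S100a9 (-0.03) were not called. In retina Csf3r was called as well, at 72.5 ± 54.8 and 6.91 ± 7.76 (-3.42, limma adjusted p = 0.000144). The retina score was 1.65 ± 0.62 and 0.76 ± 0.34 (exact permutation p = 0.000693), with 6 of the 10 genes under a mean of 3. The dendritic cell score also differed in retina, by -0.69 (exact permutation p = 0.0122), and a T and NK cell score by -0.28 (p = 0.0175, same exact test), with 3 of 6 and 7 of 9 genes under a mean of 3. A dendritic cell score over 6 genes differed by -0.70 in choroid (exact permutation p = 3.15e-05), an endothelial score by 0.27 (p = 9.45e-05, same exact test), a fibroblast score by 0.16 (p = 0.0157, same exact test) and an erythroid score by 1.27 (p = 0.0201, same exact test). Their part in the members' differences was not tested.

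The deletion of Tgfbr2 in endothelial cells was the second factor of the design. No member passed the test between Tgfbr2ΔEC and control mice in either tissue or on either diet. In – PLX choroid limma called 0 of 10 members, at an overall rate of 0.00423% of genes (1 gene, and 411 without mouse 15). The unadjusted p was under 0.05 for 2 members, Il18 and Il1b, and for 2184 of the 23619 genes tested. In + PLX choroid limma called 0 of 10 (0.00423% of genes, 0 members under 0.05 unadjusted), and in retina 0 of 9 on each diet (0% of genes, 0 members under 0.05 unadjusted).

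The largest of these differences in – PLX choroid was that of Il1b, at -0.99 (95% interval -1.97 to -0.0079, limma adjusted p = 0.535), from 115 ± 61.0 in controls to 61.5 ± 44.4 in Tgfbr2ΔEC mice (SD, n = 5). Mouse 2 of the controls, at 218, and mouse 6 of the Tgfbr2ΔEC mice, at 138, stood above all others of their group. Il18 differed by -0.30 (interval -0.58 to -0.024, adjusted p = 0.468, limma), Pycard by -0.41 (-0.93 to 0.11) and Gsdmd by 0.22 (-0.10 to 0.54). For Il1a (0.01, interval -0.64 to 0.67), Tnf (-0.05, -1.01 to 0.91), Casp1 (-0.17, -0.71 to 0.36) and Nlrp3 (-0.10, -0.86 to 0.66) the estimates lay near 0. The failure to pass the test does not show that the genotypes were alike.

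With PLX, the choroid differences ran from -0.52 (Il1b, interval -1.50 to 0.46) to 0.67 (Il10, -0.53 to 1.86), with Nlrp3 at 0.37 (-0.39 to 1.12), where mouse 16 raised the Tgfbr2ΔEC mean to 40 ± 34.9 against 24.8 ± 5.27. In retina they ran from -0.84 (Gsdmd, -1.94 to 0.26) to -0.07 (Il1a, -1.11 to 0.97) on control food and from -0.98 (Pycard, -2.91 to 0.94) to 0.67 (Il1b, -0.97 to 2.31) with it. The neural retina score of the choroid libraries differed with genotype on control food, at 9.27 ± 1.26 in control and 11.77 ± 0.73 in Tgfbr2ΔEC choroids (exact permutation p = 0.00794, the smallest that 5 against 5 can give), and with that score as a covariate Casp1 changed to 0.20 and Tnf to 0.57. In the same choroids a mast cell score differed by -1.24 and the endothelial score by 0.09 (exact permutation p = 0.0476 for each), and the phagocyte score by -0.04 (exact permutation p = 0.524). In + PLX retina the melanocyte score differed by 0.82 (exact permutation p = 0.00794) and the mast cell score by -0.11 (exact permutation p = 0.0397). The part of these scores in the members' values was not tested.

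**Figure D4:**
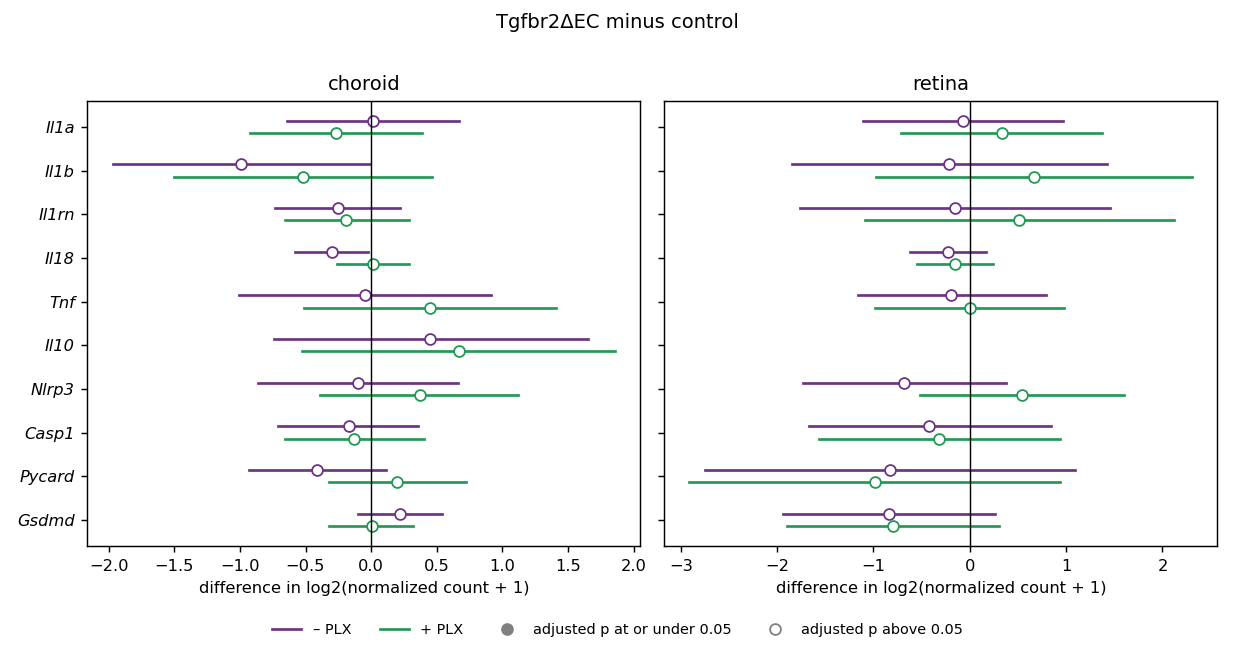
Difference between Tgfbr2ΔEC and control mice in log2(normalized count + 1) (horizontal axis) for each gene, with 95% intervals from limma, without and with PLX, in choroid and retina. No point is filled, since no adjusted p was at or under 0.05, and Il10 has no retina value because it was not tested there.

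Between the tissues of the same mice, all 10 members were higher in choroid. On control food limma called 10 of 10 members higher in choroid, against 37.7% of the 24317 genes tested, and with PLX again 10 of 10, against 37.7%. Il10 averaged 0.101 over the 20 retinas and entered this comparison through choroid alone, so that it could only be higher there. Tnf, Il1a and Il1rn also had retina means under 1 with PLX. The steepest was Il1rn, with a mean of 1081 ± 331 in choroid and 15.6 ± 15.1 in retina (SD, n = 10), 69.3-fold higher without PLX. Casp1 was 22.4-fold, Gsdmd 15.4-fold, Il1b 13.9-fold, Nlrp3 12.3-fold, Pycard 11.9-fold and Il1a 6.38-fold higher in choroid. The fold of Pycard was 18.6 without mouse 1, whose retina held 279.6. Among the members given a fold, Il18 had the smallest, 2.44-fold without and 2.18-fold with PLX, and its tissues did not overlap. Tnf (39.7 ± 15.4 against 2.07 ± 1.69) and Il10 (5.92 ± 4.23 against 0.202 ± 0.64) are given as means only, because their retina means lay under 3 reads.

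With PLX the retina means of Il1a, Il1b, Il1rn, Tnf, Il10 and Nlrp3 all lay under 3 reads, so that no fold is given for them. Among the others Gsdmd was 35.6-fold, Pycard 32.6-fold and Casp1 15.1-fold higher in choroid. The phagocyte markers were also higher in choroid, all 17 of them on each diet, and the deposited values were on a common scale, since their median-of-ratios size factors over all 40 libraries were 1.01 throughout. The level of Il10 in treated choroids, 0.998 ± 1.37, was so low that its call (difference 0.74, limma adjusted p = 0.033) was lost in 3 of 20 fits that left out 1 mouse and with a pseudocount of 5 (0.23).

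**Figure D5:**
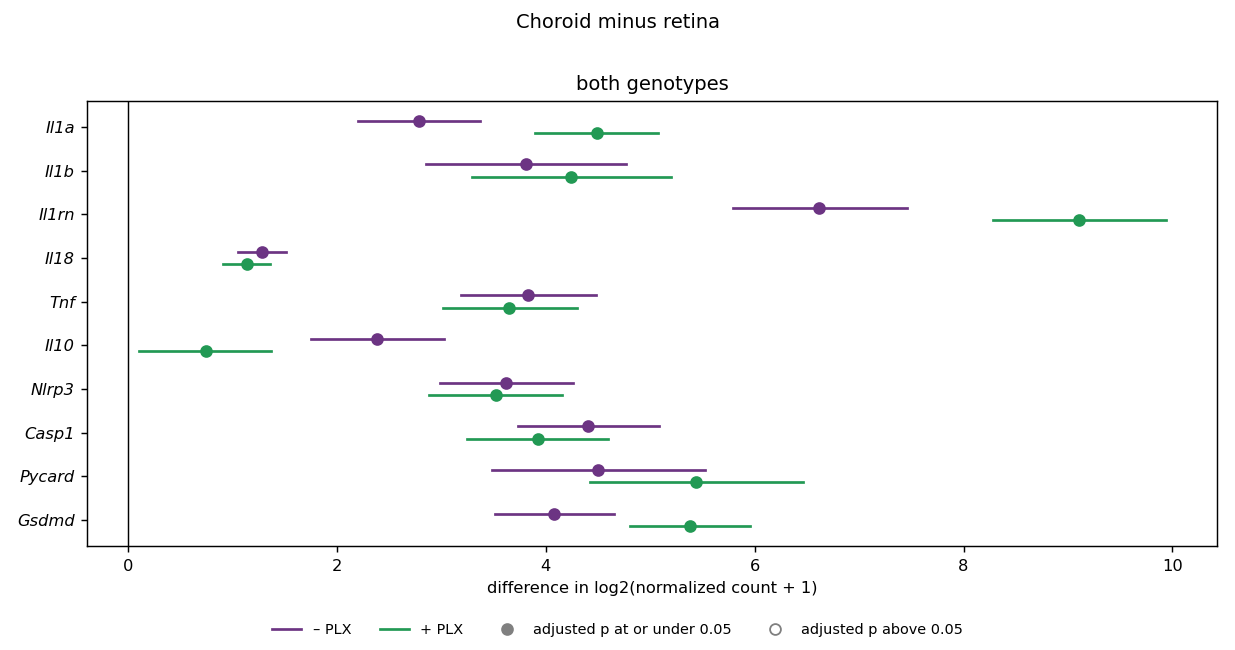
Difference between choroid and retina in log2(normalized count + 1) (horizontal axis) for each gene over both genotypes, with 95% intervals from limma, without and with PLX. All points are filled and lie to the right of 0, from 0.74 (Il10 with PLX) to 9.11 (Il1rn with PLX).

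Whether PLX acted on a member to a different degree in the 2 tissues was tested by the interaction of tissue and diet. It called 2 of 10 members, against 1.37% of all genes (332 genes, and 620 without mouse 15). Il1a had fallen by 1.25 in choroid and 2.96 in retina on the log2 scale (interaction 1.71, limma adjusted p = 0.018), and Il1rn by 0.65 and 3.14 (interaction 2.49, limma adjusted p = 0.0149). Both rest on treated retinas at or near 0, where the size of a log2 difference depends on the pseudocount. With a pseudocount of 5 in place of 1 the interactions were 0.22 and 0.94 and neither was called, whereas Casp1 was then called in the opposite direction, with the larger fall in choroid (-1.06 in place of -0.49), and the interaction of Il1a was also lost without mouse 16 (1.61). Il10 (-1.64, adjusted p = 0.0509, limma) and Gsdmd (1.30, adjusted p = 0.113, limma) did not pass, but were called in 5 and 2 of the 20 fits that left out 1 mouse. For Il10 the fall was larger in choroid, but it was at 0 in 9 of 10 untreated and 10 of 10 treated retinas. It had almost no room to fall in retina, so that nothing is read from its interaction.

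The surrounding pathways were read from 5 lists with 60 entries, of which 59 were matched in the table and 55 were tested in choroid. With PLX 17 of the 55 were lower in choroid and 0 higher, beside 5.06% of all genes lower. In the list of inflammasome sensors and adaptors 8 of 14 were lower. Nlrc4, which assembles an inflammasome upon bacterial flagellin sensed by NAIP proteins, went from 129 ± 34.6 to 20 ± 7.04 normalized counts (difference -2.65), and the DNA sensor Aim2 from 263 ± 77.2 to 82.2 ± 62.5 (-1.94). Nlrp1b differed by -1.79, Naip6 by -1.54, Naip5 by -1.32 and Naip2 by -1.09, with the caveat that these paralogs share sequence and that salmon divides ambiguous reads among them. Mefv, the gene of pyrin, differed by -1.07 and P2rx7, the ATP-gated channel upstream of NLRP3, by -1.16. In limma all of these had an adjusted p of 0.00263 or less.

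Downstream, 2 of 6 caspase and pore genes were lower in choroid. Ninj1, which ruptures the membrane of dying cells, went from 1464 ± 74.4 to 773 ± 168, and Casp8, an apoptotic caspase, from 931 ± 99.1 to 639 ± 65.8, whereas the non-canonical caspase gene Casp4 stood at 119.8 ± 37 and 86.6 ± 28 and did not pass (limma adjusted p = 0.172). Of 14 IL-1 family receptors and regulators, 1 was lower: Irak4, a kinase that relays the receptor's signal, by 0.30 on the log2 scale. The signaling receptor Il1r1 stood at 1071 ± 157 and 1162 ± 169 and the decoy receptor Il1r2 at 31.8 ± 16.9 and 28.6 ± 16, and neither passed.

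In the TNF system 4 of 12 genes were lower in choroid. Tnfaip8l2, a dampener of innate immunity found in leukocytes, went from 350.3 ± 51.4 to 82.8 ± 38.5, the receptor Tnfrsf1b from 2346 ± 542 to 1627 ± 425, and the shedding protease Adam17 from 2362 ± 180.3 to 1857 ± 200, while the kinase Ripk1 differed by -0.21 and the ubiquitous receptor Tnfrsf1a did not pass (difference 0.07, limma adjusted p = 0.676). Of 9 genes of the IL-10 system and of NF-kB feedback 2 were lower, both of them subunits of the IL-10 receptor. Il10ra, its ligand-binding chain, went from 892 ± 113 to 261 ± 50.9, and Il10rb, its shared chain, from 3122 ± 224 to 2594 ± 272.

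In retina 6 of 54 tested pathway genes were lower with PLX and 0 higher, beside 1.08% of all genes lower. Of the 6, Naip6, Nlrp1b and Tnfaip8l2 had + PLX means under 1 and so had to differ, and nothing is read from the count. Il10ra went from 50.8 ± 25 to 10.6 ± 4.55 normalized counts. Tnfaip8l2, Naip2, Naip5, Naip6 and Nlrp1b were between 5.29 and 19.3 on average without PLX and between 0.0949 and 1.75 with it. None of the pathway genes passed the test between genotypes, with 0 of 55 in choroid and 0 of 54 in retina on either diet (limma, with 5 and 3 unadjusted p under 0.05 in – PLX and + PLX choroid and 4 and 1 in retina). Among all genes tested, the unadjusted p was under 0.05 for 2184 and 889 of 23619 in choroid and 758 and 629 of 23243 in retina.

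For the members above 3 reads in all 20 libraries of a tissue, the genes that varied most like them within groups were listed by Pearson's r over the 20 libraries, after the group means had been taken off. These are descriptions over libraries that share depth and tissue composition, chosen as the highest of many. Casp1 in choroid varied most like Gbp11 (r = 0.94), Epsti1 (0.86) and Rasgrp4 (0.84), and Tnf most like Fcgr1 (0.88), Phf11a (0.84) and Epsti1 (0.79). Nlrp3 had Rpl17-ps5, a ribosomal pseudogene whose reads are uncertain (0.80), Csf2rb (0.77) and Dhcr7 (0.76), and Pycard had Prdx2 (0.88), Map2k2 (0.87) and Camk1 (0.86). Il1a was nearest to Nabp1 (0.81), Prex1 (0.79) and Tagap (0.77), Il1b to Ddx54 (0.84), Rab23 (0.76) and Ccdc138 (0.76), and Il1rn to P4ha1 (0.81), Snx18 (0.81) and Tent4a (0.80). Il18 was nearest to Stat5b (0.86), Antxr1 (0.84) and Frmd6 (0.80) in choroid, and Gsdmd to Tie1 (0.81), Hcst (0.80) and Hpx (0.78). In retina Il18 was nearest to a gene without a symbol (ENSMUSG00000048406, 0.87), to Pde6b (0.86), a photoreceptor gene, and to BC065403 (0.85), and Gsdmd to Iqck (0.79), Nr2e1 (0.76) and Gng4 (0.74).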

How the data were processed

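RNA with poly(A) tails from choroid and retina of 20 mice was sequenced. Per the submitters' processing notes the tools included FastQC 0.11.5, Salmon 1.10.1 and DESeq2 1.36.0 with GRCm39. The authors deposited a single table of normalized counts over both tissues, a signal scaled for library size in which between 45.7% and 71.9% of low values per library lay within 0.1 of whole reads, so that reads could not be recovered and no count model was fitted. Salmon divides reads among near-identical genes (Naip2, Naip5, Naip6, Nlrp1b), whose values are uncertain.

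Ensembl identifiers were matched to GENCODE vM39 (53700 of 54307 genes). limma 3.58.1 (R 4.3.3, trend, 4 groups in a single fit per tissue, no covariates) was run after a log2(normalized count + 1) transform, and a gene was tested where it averaged 1 or more in the 20 libraries of a tissue, with Benjamini-Hochberg adjustment over all genes tested and a threshold of 0.05. Folds are ratios of means. A floor of 3 reads per library was used, which covers counting error only. Scores were compared by exact permutation (Python 3.11.15, numpy 2.4.6, pandas 2.3.3, scipy 1.17.1), and plots were made with matplotlib 3.10.9. The limma step was tested on simulated choroid libraries alone, with the changed genes at a mean of at least 10. Retina values near 0, the tissue comparisons and the permutation tests were not simulated. Alternatives were other pseudocounts, minimum means, scalings, a robust variance, marker and sex scores as covariates, fits of the compared groups alone, leaving out each mouse, and the mouse as a block. Tissues of the same mouse are paired by the labels' mouse numbers, and their deviations from group means correlated between -0.158 and 0.289. The phagocyte score in the genotype comparison and the RPE and melanocyte score were added as covariates after seeing the data. Named were all 10 members, the pathway genes called by diet (up to the 12 with the lowest p in each tissue), and the 3 genes most correlated with each member above 3 reads; other pathway genes and markers named in the text were chosen after their values were seen. The members and lists were chosen with earlier results of these data known.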

Additional observations from a re-analysis of the deposited data

Results flagged for a closer look

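In 13 of the 73 groups of 5 libraries with a value above 0, the highest or the lowest library, in each case the highest, stood apart from the next by more than 0.71 of the group's range, the 95% critical value of Dixon's test for 5 samples. Chance gives this in about 1 of 20 groups, or 3.7 of 73, where values are normally distributed, which does not hold for groups at 0 in all libraries but 1. In retina, the control – PLX mouse 1 stood apart for Il1a (ratio of gap to range 0.748, 31.4 normalized counts against 9.8 in the next), Pycard (0.719, 279.6 against 83.7) and Gsdmd (0.775, 101 against 47.2).

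Mouse 16 of the Tgfbr2ΔEC + PLX group stood apart for Nlrp3 in choroid (0.795, 101 against 34.1) and for Il1b in retina (0.76, 8.12 against 1.95). Mouse 17 of that group stood apart in retina for Pycard (0.864, 25.3 against 5.16) and for Il1rn (1.0, 4.96 against 0 in the others). Mouse 6 of the Tgfbr2ΔEC – PLX group stood apart in retina for Nlrp3 (0.947, 14.7 against 5.42) and for Il10 (1.0, 2.02 against 0), and mouse 9 of the same group in choroid for Il10 (0.758, 12.5 against 6.05). The remaining cases were single libraries near 3 reads in groups otherwise at 0, namely Il1a in the retina of mouse 18 (1.0, 2.15), Il1b in the retina of mouse 13 (1.0, 1.63) and Il10 in the choroid of mouse 11 (1.0, 3.06).

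The effect of PLX differed between choroid and retina by the test of the interaction for Il1a (1.71) and Il1rn (2.49), with the larger fall in retina on the log2(normalized count + 1) scale. Treated retinas were at or near 0 for both genes, so that the size depends on the pseudocount: with 5 in place of 1 the interactions were 0.22 and 0.94 and neither was called. That of Il1a was also not called without mouse 16 (1.61).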

How the results depend on the processing

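The 8 members called lower with PLX in choroid over both genotypes numbered 8 in each of the 20 fits that left out 1 mouse. They include Il10, which was tested through its – PLX libraries, so that its part in these counts carries no weight. In control choroids the count was 2 in place of 4 with only the 2 groups compared in the fit, and 3 to 6 when a mouse was left out. In retina the count over both genotypes went from 4 to 0 with a minimum mean of 10, because the called members are then no longer tested, and was 3 to 5 when a mouse was left out. In control retinas it went from 3 to 0 with that minimum and to 1 with only the 2 groups compared, and was 1 to 3 when a mouse was left out. In Tgfbr2ΔEC retinas it went from 1 to 0 with a pseudocount of 5 and to 0 with the minimum of 10. The tissue by diet count went from 2 to 1 with a pseudocount of 5, where Il1a and Il1rn were lost and Casp1 (-1.06) was gained. With the replicate block, which pairs the tissues of a mouse, 10, 10 and 2 members were called as before, and the block changed no other call. Scaling to equal totals moved the median tissue difference of all genes to -0.13 without and -0.12 with PLX, and all 10 members were still called higher in choroid. The genotype differences that changed sign were never called. In – PLX choroid they were Il1a (-0.017 with median-of-ratios scaling), Tnf (0.06 with the sex score, 0.57 with the neural retina score, 0.015 with the phagocyte score), Nlrp3 (0.026 with the sex score and 0.026 with the neural retina score) and Casp1 (0.20 with the neural retina score). In + PLX choroid they were Il18 (-0.0032 with the phagocyte score), Casp1 (0.024 with the sex score, 0.025 with the phagocyte score) and Gsdmd (-0.0025 with median-of-ratios scaling). In – PLX retina they were Il1a (0.22 with the neural retina score), Il1b (0.041 with the sex score) and Il1rn (0.14 with the sex score, 0.09 with the neural retina score), and in + PLX retina Casp1 (0.12 with the RPE and melanocyte score). The tissue by diet differences of Il1b (-0.42 with a pseudocount of 5), Tnf (0.38 with 0.5) and Nlrp3 (0.20 with 0.5) also turned. Leaving out a mouse, the sign turned within these ranges: in – PLX choroid Il1a -0.16 to 0.14, Tnf -0.30 to 0.21 and Nlrp3 -0.22 to 0.11, and in + PLX choroid Il18 -0.026 to 0.08, Nlrp3 -0.045 to 0.58, Casp1 -0.31 to 0.045, Pycard -0.011 to 0.48 and Gsdmd -0.12 to 0.08. In – PLX retina they were Il1a -0.40 to 0.40, Il1b -0.85 to 0.36, Il1rn -0.84 to 0.35 and Tnf -0.56 to 0.14, and in + PLX retina Casp1 -0.79 to 0.08. In + PLX retina Il1a (0 to 0.41) and Il1rn (0 to 0.64) went to 0 without the only treated mouse above 0, with no change of sign. The PLX difference of Il18 in retina ranged from -0.11 to 0.009, and the tissue by diet differences of Tnf from -0.35 to 0.08 and of Nlrp3 from -0.25 to 0.042. The cause of these changes was not tested. Over all genes, the – PLX choroid genotype count was 303 in place of 1 with only the 2 groups compared and 1 to 411 when a mouse was left out, and the + PLX choroid genotype count 0 in place of 1 with a pseudocount of 5. The PLX count in Tgfbr2ΔEC choroids was 523 in place of 958 with the neural retina score and that in control choroids 572 in place of 885 with the 2 groups alone, and with the minimum of 10 the retina counts were 154 in place of 254 over both genotypes and 104 in place of 171 in controls. The tissue by diet count was 278 to 620 when a mouse was left out. In retina, 7 of 10 members lay at or under 3 reads in at least 6 of 10 treated libraries, which limits any statement on their size of change.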
